A study of Homo sapiens with 24 samples.

Results

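The response of A549 cells to depletion of PKCδ was followed across 18417 genes on 6 of the 24 arrays of the series, chosen by their sample titles: 3 of A549 cells that express the PKCδ shRNA δ193 and 3 of A549 cells that express a scrambled shRNA (δscr). A549 is a human lung adenocarcinoma line with mutant K-ras that the study classes as K-ras independent, as it does H460, whereas it classes H2009 and H441 as K-ras dependent. Each of these lines was profiled with both shRNAs, 3 arrays per group, on Affymetrix Human Gene 1.0 ST arrays. Both A549 groups carried a lentiviral pLKO vector, were kept under puromycin and grew in RPMI-1640 with fetal bovine serum, so they share the vector, the selection and the parent line. The depleted group rests on a single shRNA against the coding region. The labels number the arrays of a group as replicates without saying whether each came from its own culture or transduction. The p-values thus measure the spread between arrays, which was pooled over all 24 arrays and not taken from A549 alone.

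PKCδ, encoded by PRKCD, is a serine/threonine kinase that diacylglycerol and phorbol esters activate without calcium. It takes part in apoptosis, in the response to growth factors and in NF-κB and STAT signaling. A549 cells lack a functional KEAP1 protein, the adaptor that marks NRF2 for degradation, and have lost the CDKN2A and MTAP genes.

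The A549 δscr arrays carried several known marks of this line. MTAP was 4.19 on the log2 scale of the arrays against 7.60 to 8.14 in the δscr arrays of the other lines. CDKN2A was 4.29, against 4.155 in H460, 8.61 in H2009 and 4.93 in the arrays labelled H441, so it did not set A549 apart from H460. The simple epithelial keratins KRT8 and KRT18 were 12.5 and 12.4, but the epithelial marker EPCAM was 4.71, below the median gene (5.75). The alveolar factor NKX2-1 was at 3.88 and the leukocyte antigen PTPRC at 2.66, which is below the median gene (5.75). Array values correlated across genes at 0.9942 to 0.9968 within δscr, at 0.996 to 0.9971 within δ193 and at 0.9905 to 0.9938 between them. δscr replicate 1 stood apart from the other δscr arrays for some of the genes described here, and its values are given with them. The arrays labelled H441 go into the comparisons with other lines. NKX2-1 and SFTPB, the surfactant protein B gene, both known from H441 cells, were 4.21 and 4.01 there, and these arrays differed from the H460 arrays by at least 4 fold at 111 genes (0.603%), against 348 to 607 genes (1.89% to 3.3%) for the other pairs of lines. Their identity was not tested further, and the main comparisons with other lines are also given without them.

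PRKCD was lower in A549 cells with δ193. The array values were 6.70, 7.03 and 7.18 with δscr and 5.61, 5.82 and 5.71 with δ193. The groups did not overlap, and the change was -1.26 (standard error 0.20, adjusted p = 0.000325 by limma), which is 2.39 fold. The change was smaller than the mean change of the other lines, by 0.97 (95% confidence interval 0.49 to 1.45, adjusted p = 0.012). The level with δscr was lower in A549 to begin with, at a mean of 6.97 against 7.86 to 8.32 in the other lines, and with δ193 it was 5.71 against 5.46 to 6.29. Against H460 alone the difference was 0.78 and did not pass (adjusted p = 0.147). Of the 8 protein kinase C isoforms measured, PRKCA, a calcium-dependent isoform, was the other member that passed, from 8.14, 8.12 and 8.27 to 8.62, 8.52 and 8.50, an increase of 0.37 (standard error 0.08, adjusted p = 0.0054). All δ193 arrays lay above all δscr arrays, and the remaining 6 isoforms were not called.

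Between δ193 and δscr, 852 of 18417 genes (4.63%) differed at an adjusted p under 0.05 and a change of at least 0.32 (log2) in either direction. Of these, 377 were higher (2.05%) and 475 lower (2.58%) with δ193. The median change was 0.52 among the higher genes and -0.55 among the lower genes, against 0.0055 over all genes. Changes of at least 2 fold were found for 41 higher and 40 lower genes, and those of 4 fold or more for 6 higher and 0 lower genes. Of the 852 genes, 839 had groups that did not overlap, as did 24% of all genes. The largest changes were thus increases, while decreases were more numerous.

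**Figure D1:**
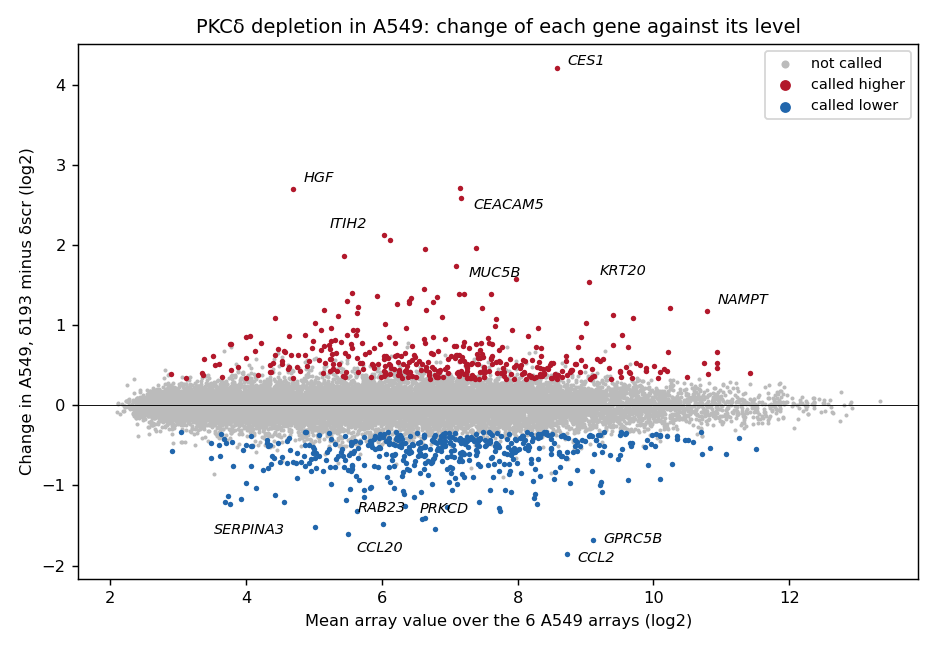
Change of each gene in A549 (vertical axis, log2, δ193 minus δscr) against its mean array value over the 6 A549 arrays (horizontal axis, log2). Red points are the 377 genes called higher, blue points the 475 called lower and grey points the rest; CES1 stands highest at 4.21 and CCL2 lowest at -1.86.

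CES1, a carboxylesterase that hydrolyzes drugs and lipid esters, rose most. Its array values were 6.79, 6.35 and 6.28 with δscr and 10.36, 10.73 and 10.95 with δ193. The groups were far apart, and the increase was 4.21 (standard error 0.12, adjusted p = 1.48e-16), or 18.5 fold. Its pseudogene CES1P1 rose by 2.71, but the sequences are close and probes of either may read transcripts of both. HGF, the growth factor that activates the receptor MET, was 3.16, 3.39 and 3.46 with δscr and 5.88, 6.03 and 6.20 with δ193. This was an increase of 2.70 (standard error 0.10, adjusted p = 2.58e-14) from a level near the low end of the arrays, with all δ193 arrays high. MET itself was 9.93 and 9.74 (change -0.18, adjusted p = 0.255).

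CEACAM5, the carcinoembryonic antigen, was 4.08, 6.46 and 7.08 with δscr and 8.44, 8.48 and 8.47 with δ193. The δ193 arrays lay close together above δscr arrays that were widely spread, and the increase was 2.59 (standard error 0.40, adjusted p = 0.000213). δscr replicate 1 was the low array, and without it the increase was 1.69. The same array was low for MAL2, a membrane protein of apical transport (4.36 against 6.19 and 6.44), for CHST9, a sulfotransferase (3.05 against 5.32 and 5.16), and for KRT20, an intestinal keratin (7.01 against 8.63 and 9.19). These 3 genes rose by 1.96, 1.86 and 1.53, and by 1.30, 1.13 and 0.90 without δscr replicate 1. They were still called without it, at adjusted p = 0.0112 or less. With the A549 arrays fitted alone by limma, however, CHST9 and KRT20 were not called (adjusted p = 0.0662 and 0.0888).

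Among the other genes that rose most, A1CF, the RNA-binding partner of the APOB mRNA editing enzyme, was 5.15, 5.07 and 5.04 with δscr and 6.97, 7.06 and 7.42 with δ193, an increase of 2.06 (standard error 0.10, adjusted p = 1.4e-12). ITIH2, a heavy chain of the serum inter-alpha-trypsin inhibitor, was 5.57, 4.65 and 4.69 and became 6.87, 7.04 and 7.37, an increase of 2.13 (standard error 0.19, adjusted p = 1.08e-07). All δ193 arrays were high for both genes and the groups did not overlap. MUC5B, a gel-forming airway mucin, rose by 1.73, the tetraspanin TSPAN7 by 1.96, the C2 domain protein TC2N by 1.58 and the secreted protein HHIPL2 by 1.46. SLC2A12, a glucose transporter, and RAP1GAP, which switches off the GTPase Rap1, rose 2.64 fold and 2.63 fold (largest adjusted p of these 6 = 8.76e-06, for TC2N).

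**Figure D2:**
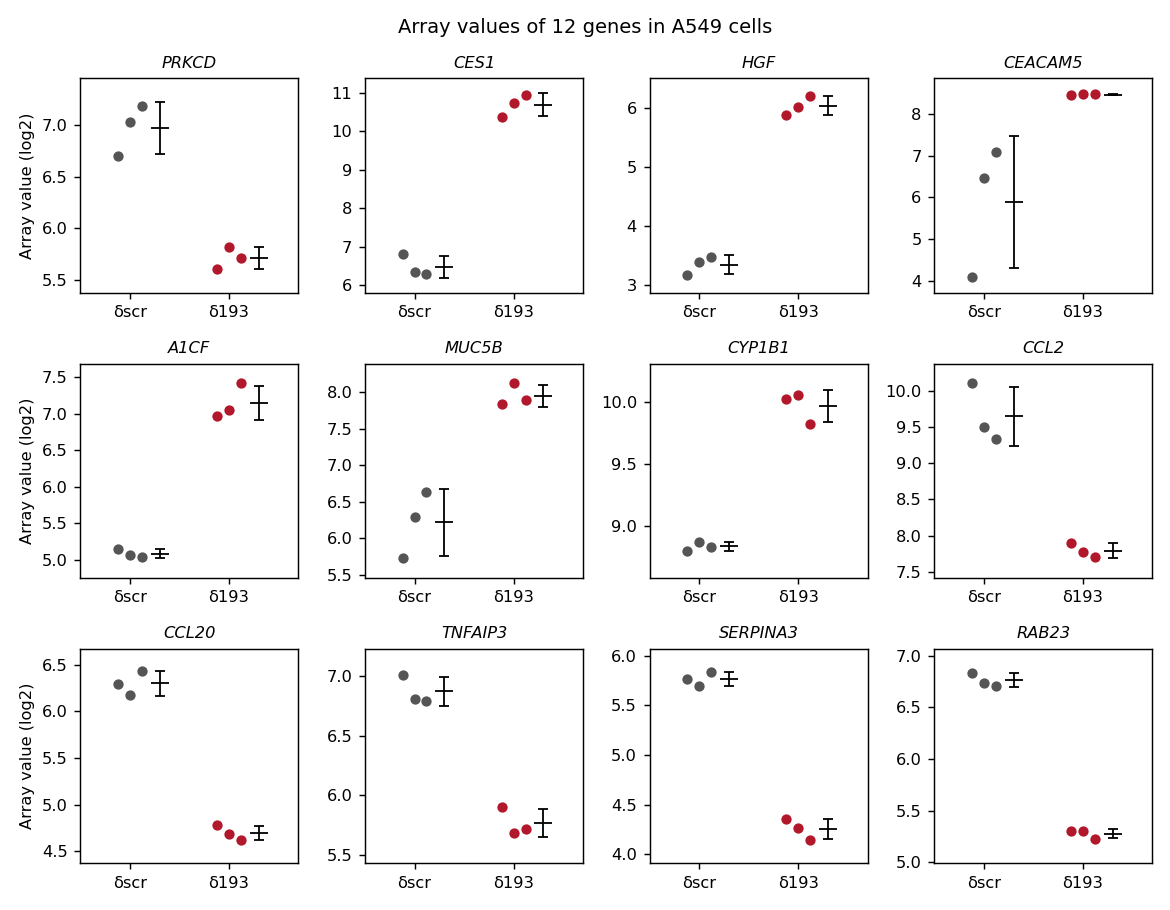
Array values (log2) of 12 genes in A549, with δscr arrays in grey and δ193 arrays in red, 3 per group; the black bar beside each group gives the mean and SD. In all 12 genes the groups do not overlap, and CEACAM5 shows the wide spread of the δscr arrays, from 4.08 to 7.08. Vertical axes differ and do not start at 0.

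CCL2, the chemokine MCP-1 that recruits monocytes, fell most. Its array values were 10.1, 9.50 and 9.34 with δscr and 7.90, 7.77 and 7.70 with δ193. All δ193 arrays were low, and the decrease was -1.86 (standard error 0.14, adjusted p = 5.28e-09), or 3.63 fold. CCL20, the ligand of CCR6, fell from 6.30, 6.17 and 6.43 to 4.78, 4.69 and 4.62 (-1.60, standard error 0.30, adjusted p = 0.00172). SERPINA3, the acute phase protein α1-antichymotrypsin, fell from 5.77, 5.70 and 5.84 to 4.36, 4.26 and 4.15 (-1.51, standard error 0.17, adjusted p = 2.95e-06). The groups of these 3 genes did not overlap.

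Other large decreases were found in genes of the cell surface, the matrix and intracellular traffic. GPRC5B, an orphan receptor, was 10.3, 9.80 and 9.77 with δscr and 8.38, 8.24 and 8.20 with δ193 (-1.68, standard error 0.20, adjusted p = 1.02e-05), so that all δ193 arrays were low. MMP7, the protease matrilysin, fell by 1.42, the secreted matrix protein CCDC80 by 1.54 and FSTL1, a secreted glycoprotein related to follistatin, by 1.32. CCDC80 was 8.41 in δscr replicate 1 against 7.23 and 7.02 in the other δscr arrays, and fell by 1.11 without that array. RAB23, a GTPase that restrains hedgehog signaling, was 6.84, 6.74 and 6.71 with δscr and 5.30, 5.30 and 5.22 with δ193, a decrease with little spread in either group (-1.48, standard error 0.11, adjusted p = 1.05e-08). The scaffold MPP1 fell by 1.403, the scavenger receptor SCARA3 by 1.32, the olfactomedin OLFM2 by 1.28, the doublecortin protein DCDC2 by 1.27, the protease-like PRSS35 by 1.24 and ADA, adenosine deaminase, by 1.23 (largest adjusted p of these 6 = 0.000243, for SCARA3).

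Subunits and targets of NF-κB, the transcription factor that drives inflammatory genes and its own inhibitors, were lower for 7 of 23 measured and higher for 0, against 2.58% of all genes lower. The median change was -0.35 and 22 of the 23 lay below 0, as did 48.3% of all genes. TNFAIP3, which encodes A20, a ubiquitin-editing inhibitor of NF-κB, was 7.01, 6.81 and 6.79 with δscr and 5.90, 5.68 and 5.72 with δ193 (-1.10, standard error 0.25, adjusted p = 0.00792). The groups were well apart. REL, an NF-κB subunit, fell by 0.50, NFKB1, the p105/p50 subunit, by 0.35 and NFKBIE, an inhibitor, by 0.37. ICAM1, the adhesion receptor for leukocytes, changed by -0.80 (adjusted p = 0.0117). With 1 array left out the number lower was 4 to 7, with 4 when either δ193 replicate 2 or δscr replicate 2 was left out, and ICAM1, NFKB1 and NFKBIE each lost the call without either of these arrays. ICAM1 and NFKBIE also lost it without δscr replicate 3, NFKB1 without δscr replicate 1, and NFKB1 and NFKBIE without δ193 replicate 3 (adjusted p up to 0.186 for NFKB1). RELA, the p65 subunit, was not called (-0.17, adjusted p = 0.542), nor were RELB (-0.37, adjusted p = 0.19), NFKB2 (-0.40, adjusted p = 0.076) or the inhibitor NFKBIA (-0.25, adjusted p = 0.423).

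Of 34 chemokines and cytokines measured, 7 were lower and 0 higher, with a median of -0.12. Beside CCL2 and CCL20, which stand in both lists, CXCL1, a neutrophil chemokine, was 8.95, 8.64 and 8.83 with δscr and 7.81, 7.60 and 7.69 with δ193 (-1.11, standard error 0.25, adjusted p = 0.00815). CXCL5, of the same family, fell from 10.7, 10.6 and 10.6 to 9.84, 9.89 and 9.99 (-0.73, standard error 0.11, adjusted p = 0.000213). All δ193 arrays were low for both. CCL5, or RANTES, fell by 1.06, the cytokine IL32 by 0.98 and TNFSF15, a ligand of the TNF family, by 0.66. CXCL8, or interleukin 8, was 9.20, 8.58 and 8.97 with δscr and 8.25, 7.87 and 8.09 with δ193. Its groups did not overlap, but it did not pass (-0.84, adjusted p = 0.214), nor did CXCL2 (-0.78, adjusted p = 0.0821), and IL6 was near 4 in both groups (-0.05). The number lower was 7 or 8 whichever array was left out.

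Matches to an NF-κB motif were looked up in RefSeq promoter windows of GRCh38.p14. The windows reach from 250 bases before to 50 bases after the gene start. The motif GGANNTTCC was searched on both strands, and 44 of the 54 genes in the NF-κB and chemokine lists together had a window. It was present in 19 of these 44 windows (43.2%) and in 652 of 14239 windows overall (4.58%). Of the 12 members lower in A549, 9 had a window, and the motif was in 7 of these 9. The other lower members, CCL5, TNFSF15, NFKBIE and the strongest decreases CCL2 and CCL20, had either no window or no match. Among members not called that had a window, the motif was in 12 of 35 (34.3%). Over all genes it was in 29 of 385 windows of lower genes (7.53%) and in 13 of 309 windows of higher genes (4.21%). The 29 include the 7 lower members of these lists. The lists were drawn up from what is known of NF-κB, so the share in them is a description. The matches of the 7 lower members are printed below on the strand of each gene, 29 bases each with the motif in capitals, followed by that of CXCL8 as a member that was not called.
CXCL1 (chr4:73869305-73869333, plus strand, 78 to 70 bases before the start): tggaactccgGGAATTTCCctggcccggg
CXCL5 (chr4:73998749-73998777, minus strand, 90 to 82 bases before the start): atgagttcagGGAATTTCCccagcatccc
IL32 (chr16:3065295-3065323, plus strand, 98 to 90 bases before the start): ctgtactcagGGAGTTTCCccagccagct
IL32 (chr16:3065325-3065353, plus strand, 68 to 60 bases before the start): tcccgagtctGGACTTTCCctctgcccct
TNFAIP3 (chr6:137867182-137867210, plus strand, 67 to 59 bases before the start): acgtgactttGGAAAGTCCcgtggaaatc
ICAM1 (chr19:10270924-10270952, plus strand, 186 to 178 bases before the start): gctttagcttGGAAATTCCggagctgaag
REL (chr2:60881518-60881546, plus strand, 46 to 38 bases before the start): gtcagccgcgGGAAATTCCcctcccgcca
NFKB1 (chr4:102501301-102501329, plus strand, 48 to 40 bases before the start): gacgtcagtgGGAATTTCCagccaggaag
CXCL8 (chr4:73740468-73740496, plus strand, 91 to 83 bases before the start): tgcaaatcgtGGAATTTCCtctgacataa
The match in TNFAIP3 is on the strand opposite to the gene. These are matches of letters, and binding was not measured.

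**Figure D3:**
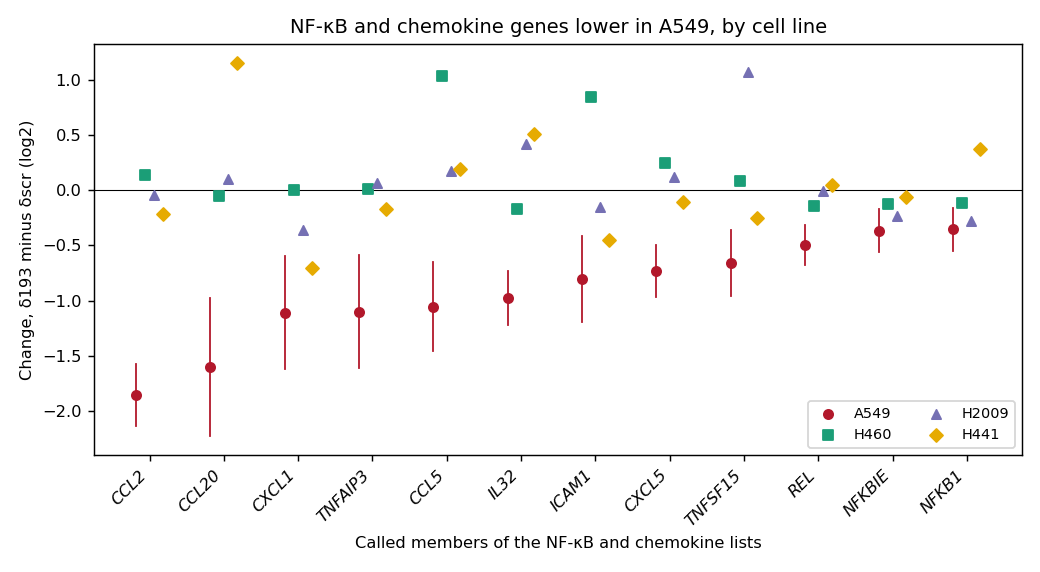
Change with δ193 (vertical axis, log2) of the 12 members of the NF-κB and chemokine lists that were called lower in A549, in A549 (red circles, lines give the 95% confidence interval) and in H460, H2009 and the arrays labelled H441. The A549 points run from -1.86 (CCL2) to -0.35 (NFKB1), while CCL5 and ICAM1 were higher in H460 and CCL20 in the arrays labelled H441.

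In the other lines the median of the NF-κB list lay near 0, at 0.09 in H460, -0.07 in H2009 and 0.05 in the arrays labelled H441. Lower members numbered 3, 0 and 1 of 23 there, and higher members 2, 0 and 4. The change in A549 lay below the mean of the other lines for 5 of 7 lower NF-κB members and 6 of 7 lower chemokines. Against H460 and H2009 only, 5 and 6 passed. CCL2 and CCL20 are counted in both lists. Over all genes 2.73% passed below, but 52.8% of all genes called lower in A549 did. The counts are thus a description of genes already chosen as lower. For CCL5 the change was 1.06 down in A549 and 1.04 up in H460, and the difference from the mean of the other lines was -1.53 (95% confidence interval -1.99 to -1.06, adjusted p = 0.000132). For CCL2 the difference was -1.82 (adjusted p = 1.08e-07), but its level with δscr was 3.79 to 4.08 in the other lines, against 9.65 in A549, near the low end of the arrays. CXCL1, NFKB1 and NFKBIE did not pass the test of the difference (adjusted p = 0.147, 0.0674 and 0.287), nor did they against H460 and H2009 only (adjusted p = 0.0956, 0.617 and 0.497).

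Genes of gp130 and JAK-STAT signaling, through which IL-6 family cytokines act, were lower for 6 of 25 measured and higher for 0 (median -0.08). LIFR, the receptor of leukemia inhibitory factor, was 5.64, 5.40 and 5.59 with δscr and 4.82, 4.73 and 4.62 with δ193 (-0.82, standard error 0.13, adjusted p = 0.000243). JAK1, a tyrosine kinase of these receptors, was 9.91, 9.83 and 9.70 with δscr and 9.17, 9.19 and 9.06 with δ193 (-0.67, standard error 0.08, adjusted p = 1.18e-05), and the groups of both genes were apart. The STAT3 target PIM1, a survival kinase, fell by 0.70. IL6ST, the gp130 chain, fell by 0.37, STAT3 itself by 0.38 and OSMR, the oncostatin M receptor, by 0.51. The calls of IL6ST, STAT3 and OSMR were each lost in the absence of δscr replicate 1, δ193 replicate 2 or δ193 replicate 3, each left out alone, where the list had 3 lower members. IL6ST also lost its call without δscr replicate 3. LIFR was lower in each of the other lines too, by 0.75 to 0.93, whereas the decrease of JAK1 exceeded the mean of the other lines by 0.36 (adjusted p = 0.0225).

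Receptors and ligands of growth factors moved in both directions, with 4 of 42 higher and 5 lower. Without δ193 replicate 2 the number higher was 2, as the call was lost for IGF2R and IGFBP1, a receptor and a carrier of IGFs. Beside HGF, the IGF carrier IGFBP3 rose, from 8.71, 9.11 and 9.63 to 10.3, 10.2 and 10.3 (1.09, standard error 0.17, adjusted p = 0.000229). FGFR1, a receptor of fibroblast growth factors, was 9.02, 8.52 and 8.55 with δscr and 7.87, 7.72 and 7.67 with δ193 (-0.94, standard error 0.13, adjusted p = 6.82e-05), with no overlap. FGFR4 fell by 0.63, NRP2, a coreceptor of VEGF and semaphorins, by 0.95 and ERBB2 by 0.49. FGFR1 was higher in H2009 by 0.58, and its change in A549 lay 1.26 below the mean of the other lines (adjusted p = 1.09e-05). EGFR was not called (-0.16, adjusted p = 0.721).

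Genes that ERK induces or that act on it were higher for 4 of 26 and lower for 1 (median 0.10). MAP3K8, the kinase TPL2 that activates MEK downstream of NF-κB1, was 8.50, 8.60 and 8.55 with δscr and 7.78, 7.84 and 7.87 with δ193 (-0.72, standard error 0.09, adjusted p = 1.98e-05). Every δ193 array was low, and the change lay below the mean change of the other lines by 0.74 (adjusted p = 0.00011). The feedback inhibitor SPRY4 rose by 0.63, FOS by 0.64, the transcription factor ETV1 by 0.61 and SPRY1 by 0.37. None of these 4 calls held with every array left out in turn, and 1 or 2 of them remained for any given array. The phosphatase DUSP6 was not called (0.01, adjusted p = 0.998).

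Mucins, CEACAMs and trefoil factors, products of secretory and glandular epithelia, were higher for 6 of 26 and lower for 1 (median 0.11). MUC13, a membrane mucin, was 7.19, 6.62 and 6.92 with δscr and 8.29, 8.34 and 8.26 with δ193 (1.39, standard error 0.12, adjusted p = 1.04e-07). AGR2, a disulfide isomerase that mucin folding needs, was 9.04, 9.76 and 10.1 with δscr and 10.7, 10.9 and 10.9 with δ193 (1.22, standard error 0.18, adjusted p = 0.000111). All δ193 arrays were high for both genes. CEACAM1 rose by 1.29 and TFF1, a trefoil peptide, by 1.28, while the mucin-like CD24 fell by 0.94. CEACAM6 was already at 11.7 with δscr and was not called (0.17, adjusted p = 0.69), nor was MUC1 (-0.23, adjusted p = 0.741). CEACAM genes share sequence, and probes of one may read another. The difference from the other lines was passed by all 6 higher members, and that from H460 and H2009 only by 5 of the called members. Of all genes called higher in A549, 59.2% passed the former.

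A549 cells express several genes known from the liver, and these split. Of 31 hepatic-type genes 4 were higher and 4 lower (median 0.06). APOH, the plasma glycoprotein β2-glycoprotein I, was 5.75, 5.53 and 5.97 with δscr and 6.86, 7.16 and 7.15 with δ193 (1.31, standard error 0.10, adjusted p = 2.07e-08). SERPINA1, α1-antitrypsin, rose by 0.82, beside A1CF and ITIH2. CP, the ferroxidase ceruloplasmin, was 9.68, 9.61 and 10.1 with δscr and 8.58, 8.70 and 8.83 with δ193 (-1.08, standard error 0.20, adjusted p = 0.00172), so the direction was opposite in genes of the same plasma class. The mean change of CP in the other lines was -0.97, and its difference from them did not pass (-0.11, adjusted p = 0.89). FOXA1, a pioneer transcription factor of endodermal tissues, fell by 0.61 and the fibrinogen chain FGB by 0.64, although FGB lost its call without δ193 replicate 1, δ193 replicate 2 or δscr replicate 3 (adjusted p = 0.093, 0.0564 and 0.109). The fibrinogen chains are a mark of A549, with FGB at 8.97 against 3.02 to 3.45 with δscr in the other lines. The other chains were not called and went in opposite directions, FGA by -0.24 (adjusted p = 0.276) and FGG by 0.75 (adjusted p = 0.074). FGG was low in δscr replicate 1, at 4.14 against 5.59 and 5.775 in the other δscr arrays. Albumin and AFP were near 3 in both groups (changes 0.01 and 0.06).

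In complement and coagulation 5 of 40 genes were higher and 4 lower (median -0.02). C5, the precursor of the anaphylatoxin C5a, rose from 5.97, 6.00 and 6.21 to 7.33, 7.25 and 7.14 (1.18, standard error 0.11, adjusted p = 2.52e-07), with the groups well apart. The bradykinin receptor BDKRB1 rose by 0.65, C4BPA, a fluid phase inhibitor of complement, by 0.61 and CD46, a membrane inhibitor of complement, by 0.42. PLAT, tissue plasminogen activator, fell by 0.76 and the central component C3 by 0.47, although C3 lost its call without δ193 replicate 3 or δscr replicate 3 (adjusted p = 0.063 and 0.0549). The number lower was 2 without either of these arrays or δ193 replicate 2.

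Phase I enzymes, which oxidize or hydrolyze drugs and other foreign compounds, were higher for 7 of 30 and lower for 0 (median 0.11). After CES1 the largest change was in CYP1B1, a cytochrome P450 induced by aromatic hydrocarbons, from 8.80, 8.88 and 8.84 to 10.02, 10.06 and 9.82 (1.13, standard error 0.13, adjusted p = 3.59e-06). CYP4F11, a fatty acid hydroxylase, was 8.05, 8.60 and 8.83 with δscr and 9.48, 9.51 and 9.56 with δ193 (1.02, standard error 0.13, adjusted p = 1.74e-05). All δ193 arrays were high in both. CYP3A5 rose by 0.79 and EPHX1, an epoxide hydrolase, by 0.73. With 1 array left out the number higher was 5 or 6. The difference from the other lines was passed by 6 of the 7, as it was by 59.2% of all genes called higher in A549, and by 5 against H460 and H2009 only. The aldehyde dehydrogenase ALDH1A1 was 12.1 with δscr and was not called (0.11, adjusted p = 0.716), but it fell by 1.07 to 1.56 in the other lines, so the difference passed at 1.36 (adjusted p = 3.14e-08).

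Targets of NRF2 were higher for 2 of 28 and lower for 1, and 25 lay above 0 (median 0.14). Over all genes 48.3% lay below 0. NQO1 was 12.3, 12.3 and 12.3 with δscr and 12.4 in each δ193 array (0.09, adjusted p = 0.65), and SLC7A11, the cystine transporter, was not called either (0.21, adjusted p = 0.11). The calls within this list other than EPHX1 were GCLM (0.34) and HMOX1 (-0.80), each of which was lost with several single arrays left out. Among ion and bicarbonate transporters 4 of 25 were higher and 0 lower (median 0.04). They include the carbonic anhydrase CA2, from 7.11, 6.14 and 6.29 to 8.08, 7.76 and 7.88 (1.39, standard error 0.18, adjusted p = 2.79e-05), the bicarbonate cotransporter SLC4A4 (1.21, adjusted p = 8.76e-08) and the chloride cotransporter SLC12A2 (0.75, adjusted p = 0.00145).

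**Figure D4:**
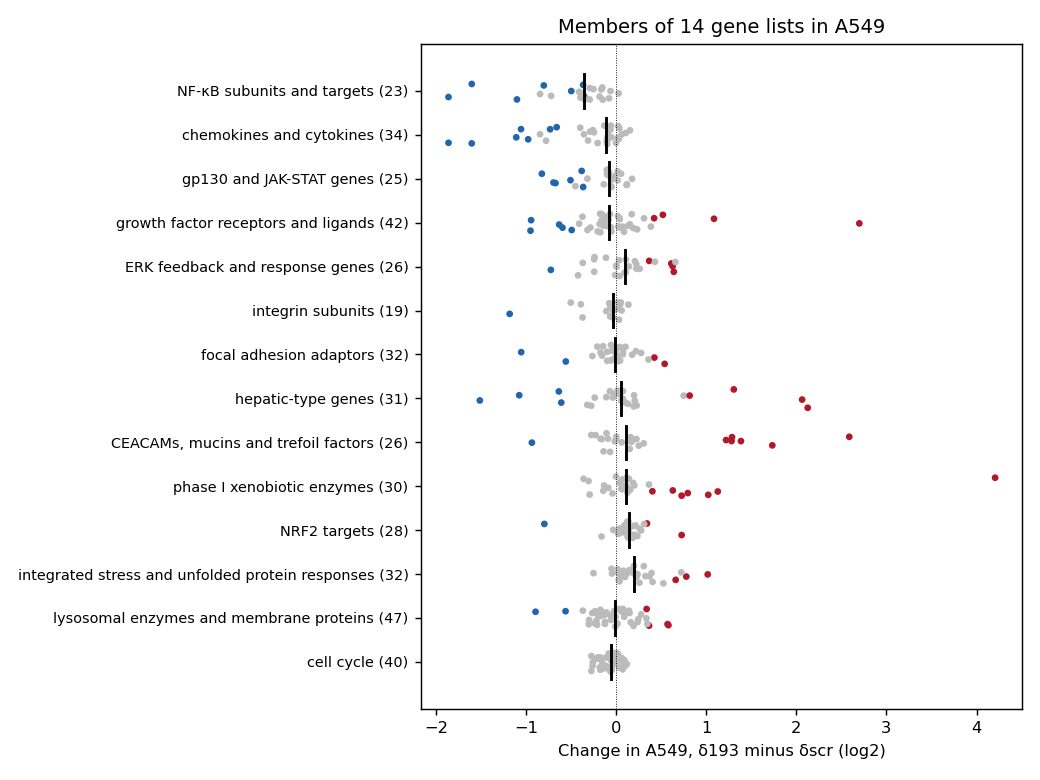
Change in A549 (horizontal axis, log2, δ193 minus δscr) of the measured members of 14 gene lists, with the number measured in parentheses. Red points were called higher, blue points lower and grey points were not called, and the black bar is the list median, which is -0.35 for NF-κB genes and 0.19 for the stress response genes; vertical scatter within a list has no meaning.

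Genes of cell adhesion changed in both directions, against 4.63% of all genes called. Of 19 integrin subunits 1 was lower and 0 higher (5.26%, median -0.04), of 32 focal adhesion adaptors 2 were higher and 2 lower (12.5%), of 30 laminins and matrix glycoproteins 3 were higher and 2 lower (16.7%), and of 22 collagen chains 2 were lower (9.09%). Without δ193 replicate 3 the number of lower collagens was 0, and the number of lower laminins and matrix glycoproteins was 0 without δscr replicate 2 or δ193 replicate 1. The integrin was ITGB6, the β6 subunit that binds latent TGFβ, from 6.53, 5.92 and 5.75 to 5.13, 4.86 and 4.67 (-1.18, standard error 0.17, adjusted p = 6.51e-05), with all δ193 arrays low. ITGAV, its αV partner, was 9.40, 9.33 and 9.36 with δscr and 9.31, 9.29 and 9.29 with δ193. These groups were 0.02 apart and the change of -0.07 was not called (adjusted p = 0.846). ITGAV was lower by 0.43 to 0.80 in the other lines, and the difference between A549 and their mean passed at 0.49 (adjusted p = 0.00254). ITGB3, the β3 subunit, was 4.83, 5.17 and 5.18 with δscr and 4.51, 4.53 and 4.62 with δ193. Its groups did not overlap, but it was not called (-0.50, adjusted p = 0.0966), and its change did not pass the test of the difference from the other lines either (0.10, adjusted p = 0.877). FERMT2, or kindlin-2, which activates integrins, was 8.37, 8.31 and 8.36 with δscr and 7.43, 7.24 and 7.21 with δ193 (-1.05, standard error 0.09, adjusted p = 7.86e-08). The adaptor TLN2 fell by 0.56 and the actin bundling protein PALLD rose by 0.54. SPP1, or osteopontin, a secreted ligand of αV integrins, was 10.6, 10.5 and 10.6 with δscr and 11.3, 11.2 and 11.3 with δ193 (0.67, standard error 0.07, adjusted p = 8.52e-07), and EDIL3, another such ligand, rose by 0.87.

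Markers of epithelial and mesenchymal state did not shift together. Of 25 epithelial markers 2 were higher and 0 lower (median 0.01), with MAL2 joined by the claudin CLDN4 (0.58, adjusted p = 0.000167). E-cadherin (CDH1) was 8.10, 8.92 and 9.16 with δscr and 8.73, 8.85 and 8.97 with δ193. It was not called (0.12, adjusted p = 0.919). Of 26 mesenchymal markers 1 was higher and 1 lower. N-cadherin (CDH2) rose from a mean of 6.82 with δscr to one of 7.60 with δ193 (0.78, standard error 0.10, adjusted p = 2.02e-05), and vimentin was not called (0.08, adjusted p = 0.721). Among 22 lung lineage markers CAV1, caveolin-1, was lower (-0.60, adjusted p = 0.000106).

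Cell cycle genes were not called in either direction (0 of 40, median -0.06). The proliferation marker MKI67 was 9.18, 8.86 and 8.88 with δscr and 9.11, 9.27 and 8.80 with δ193, which overlap. Of 32 genes of amino acid stress and protein folding stress, 29 lay above 0 (median 0.19), while 48.3% of all genes lay below 0. Against 2.05% of all genes higher, 3 of the 32 were called higher and 0 lower. They were PHGDH, the first enzyme of serine synthesis, from 9.79, 9.98 and 9.89 to 10.7, 10.5 and 10.5 (0.66, standard error 0.13, adjusted p = 0.00238), the pseudokinase TRIB3 (0.78, adjusted p = 0.0107) and ALDH1L2 (1.02, adjusted p = 0.0147). ALDH1L2 lost its call with each of 4 arrays left out alone. Of the 3 called genes, 0 passed the test of the difference from the other lines. The list median was -0.08 in H460, 0.13 in H2009 and 0.31 in the arrays labelled H441, where 11 members were higher. Asparagine synthetase, ASNS, had groups that did not overlap but did not pass (0.72, adjusted p = 0.0748), and DDIT3, or CHOP, was not called (0.26, adjusted p = 0.884).

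Other metabolic and organelle genes moved in small numbers. SCD, the desaturase that makes monounsaturated fatty acids, was 10.97, 10.29 and 10.41 with δscr and 9.61, 9.61 and 9.70 with δ193 (-0.92, standard error 0.12, adjusted p = 3.43e-05), and all δ193 arrays were low. In its list of cholesterol and fatty acid synthesis 2 of 23 were lower and 0 higher (median -0.16), the other being the sterol oxidase MSMO1, which lost its call when any of 4 arrays was left out. HK1, the hexokinase that starts glycolysis, rose by 0.74, and the vasodilator ADM fell by 0.66. Of 47 lysosomal genes 4 were higher and 2 lower (median -0.01), and 2 were higher without δscr replicate 2, δ193 replicate 2 or δ193 replicate 3. The called genes include the sialidase NEU1 (0.57), the membrane protein SCARB2 (0.58) and the protease CTSH (-0.89). The homeobox gene HOXA2 was lower in A549 (-1.15, adjusted p = 5.17e-05). Among 19 members of the BCL2 family BCL2A1, an NF-κB target that blocks apoptosis, was 4.81, 4.19 and 4.48 with δscr and 3.38, 3.50 and 3.67 with δ193, the sole member called (-0.98, standard error 0.16, adjusted p = 0.000373).

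Interferon-stimulated genes were lower for 4 of 41 and higher for 1 (median -0.0036). The number lower was 2 without δscr replicate 1, δscr replicate 2, δ193 replicate 2 or δ193 replicate 3, as the call was lost for IRF9 and HERC6. PSMB9, an immunoproteasome subunit, fell from 6.89, 7.09 and 7.06 to 6.47, 6.58 and 6.60 (-0.46, standard error 0.08, adjusted p = 0.00103), and the antiviral membrane protein IFITM2 by 0.69, while BST2, or tetherin, rose by 0.70. Markers of other cell types were at or near the low end of the arrays. Of 18 fibroblast and endothelial markers 0 were called, and their mean array value was 3.80 to 3.87 in the δscr arrays and 3.84 to 3.96 in the δ193 arrays. Of 18 immune cell markers CD14 was called, lower by 0.75, and it lost its call without δ193 replicate 1 or δscr replicate 1 (adjusted p = 0.0642 and 0.0756).

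The genes that the study names for lower expression in all lines, for K-ras independent lines and for K-ras dependent lines were chosen on these arrays, so their counts are no independent evidence. Of the 8 named as lower in all lines 7 were lower in A549 and 0 higher, with changes from -1.48 (RAB23) to -0.37, and the mitophagy receptor BNIP3L was not called (-0.44, adjusted p = 0.142). Of 13 measured genes named for K-ras independent lines 4 were higher and 5 lower, and 2 were higher without δscr replicate 2, δscr replicate 3, δ193 replicate 1 or δ193 replicate 2. CDK6, a kinase of the G1 phase, was 9.27, 8.88 and 8.86 with δscr and 8.46, 8.24 and 7.99 with δ193 (-0.77, standard error 0.13, adjusted p = 0.000463), and CREB3, a transcription factor of the endoplasmic reticulum, was 9.40, 9.43 and 9.48 with δscr and 9.76, 9.86 and 9.95 with δ193 (0.42, standard error 0.09, adjusted p = 0.0038). The groups of both were apart. Of 13 measured genes named for K-ras dependent lines 1 was higher and 2 lower in A549, and 10 were not called, among them ITGA3 (-0.06), ZYX (0.10) and TNC (0.40, adjusted p = 0.254).

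The response of A549 was then set against that of the other lines. The test of the difference between the change in A549 and the mean change in H460, H2009 and the arrays labelled H441 was passed by 1065 genes (5.78%), of which 563 lay above (3.06%) and 502 below (2.73%). In a fit without the arrays labelled H441, the test against H460 and H2009 was passed by 1434 genes (7.79%), 742 above and 692 below. Of the genes called in A549, 223 of 377 higher genes (59.2%) and 251 of 475 lower genes (52.8%) passed it in the same direction, 474 in all, and 431 of these also passed in that fit. The single differences given above for ALDH1A1, CCL2, CCL5, FGFR1, ITGAV, JAK1 and MAP3K8 were 1.20, -1.91, -1.67, -1.27, 0.37, -0.36 and -0.71 against H460 and H2009 only, and all 7 passed, JAK1 at adjusted p = 0.0427. A further 587 genes passed without being called in A549. Against H460, the line of the same class, 853 genes passed (4.63%), 502 above (2.73%) and 351 below (1.91%). Genes chosen as called in A549 are more likely to differ from the other lines than genes at large, so these shares are a description.

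The same call in at least 1 other line was found for 101 of the 377 higher genes (26.8%) and 174 of the 475 lower genes (36.6%), and in H460 or H2009 for 72 (19.1%) and 126 (26.5%). In H460, where 5.45% of genes were called (2.01% higher, 3.44% lower), 24 genes were higher in both lines, which is 6.37% of the A549 list and 6.49% of the H460 list, and 30 were higher in A549 but lower in H460. Of the lower genes, 91 were shared, which is 19.2% of the A549 list and 14.4% of the H460 list. With H2009 (4.91% called, 2.66% higher and 2.25% lower) 54 higher genes were shared (14.3% of the A549 list, 11% of the H2009 list) and 66 lower genes (13.9% and 15.9%). With the arrays labelled H441 (14.3% called, 7.09% higher and 7.22% lower) 48 higher genes were shared (12.7% of the A549 list, 3.68% of the other) and 118 lower genes (24.8% and 8.87%), and 57 higher genes of A549 were lower there. The arrays labelled H441 had the largest spread (median residual SD 0.184 against 0.115 in A549) in a fit that shares it. The shares called are thus not directly comparable between lines. In all 4 lines 3 genes were higher and 29 lower, and in A549, H460 and H2009, leaving out the arrays labelled H441, 6 and 31.

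The gene that lay furthest above the other lines was CES1 (difference 3.97, adjusted p = 1.28e-14). With δscr its level in A549, 6.47, was the lowest of the 4 lines, against 10.1 to 12.6 elsewhere, and with δ193 it reached 10.7. CES1 also rose in H2009, by 0.94 (adjusted p = 3.84e-05), as did CES1P1, by 0.83, and neither was called in H460 or the arrays labelled H441. HGF, CEACAM5 and A1CF had δscr levels of 2.996 to 3.90 in the other lines and changed there by 0.12 or less in either direction. SPINK6, an epithelial protease inhibitor, and FABP4, a fatty acid carrier, differed through the other lines. They were at 3.25 and 2.44 in A549 δscr arrays, near the low end, with changes of 0.02 and 0.10. SPINK6 fell by 2.35 in H460, 0.93 in H2009 and 3.75 in the arrays labelled H441. FABP4 fell by 2.29 in H460 and 4.02 in the arrays labelled H441, and was not called in H2009 (-0.16). CXCL8, the immune checkpoint ligand CD274 and ABI3BP lay below the other lines, in some of which they rose. CXCL8 rose in H460 by 1.69, CD274 in H460 and the arrays labelled H441 by 1.81 and 2.28, and ABI3BP in H460 and H2009 by 2.04 and 1.84 and in the arrays labelled H441 by 0.69. In A549 their changes of -0.84, -0.09 and -0.11 were not called. RBM24, an RNA-binding protein, fell in A549 from 7.91, 7.40 and 7.51 to 6.90, 6.72 and 6.62 (-0.86, standard error 0.15, adjusted p = 0.000942) and rose in H460 and H2009, by 0.79 and 0.81.

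**Figure D5:**
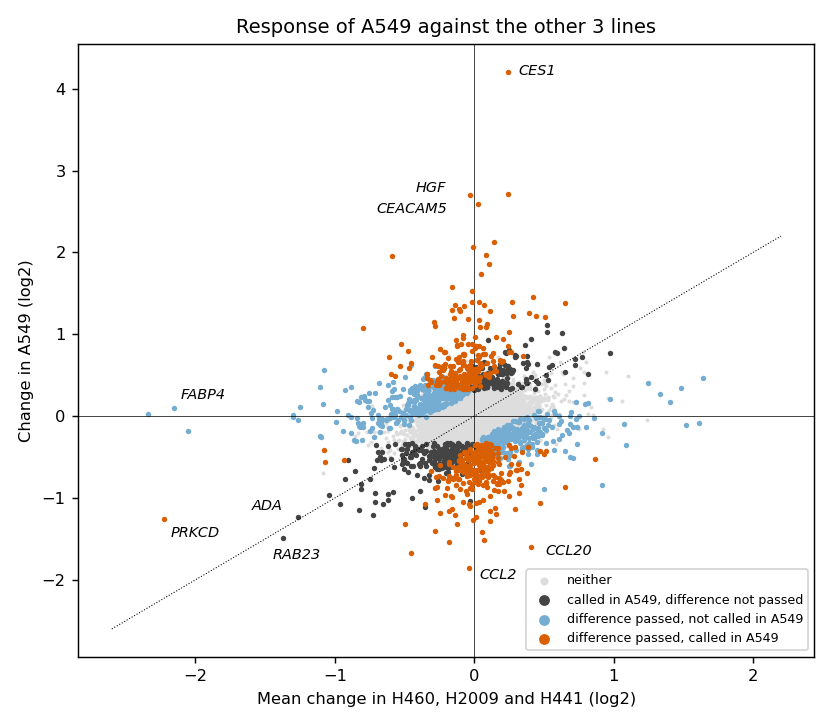
Change in A549 (vertical axis, log2) against the mean change in H460, H2009 and the arrays labelled H441 (horizontal axis, log2), 1 point per gene; the dotted line marks equal change. Orange points passed the test of the difference and were called in A549, dark points were called in A549 without passing that test, and blue points passed the difference without a call in A549; RAB23 and ADA lie near the line, while HGF and CCL2 lie near a mean change of 0 in the other lines and CES1 lies at one of 0.24.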

How the data were processed

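The deposited log2 values of 24 arrays were used, which the authors computed from the scans by RMA (background correction, quantile normalization, summary over probes) with Affymetrix Power Tools; the sources used here give no versions. RMA draws small differences of dim genes together, and a saturated or dim probe understates a change. Array medians were 4.78 to 4.91. Of 33252 transcript clusters, 19460 had 1 gene symbol, 1754 several and 12038 none in the platform annotation. Symbols were brought up to date through RefSeq, and for 769 genes with several clusters the brightest was used, which left 18417 genes. Levels of different genes are not comparable, since probes differ.

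limma 3.58.1 in R 4.3.3 was fitted to all arrays with 8 group means and 16 residual degrees of freedom. All lines thus shared 1 spread per gene. The median residual SD was 0.115 in A549, 0.0923 in H460, 0.117 in H2009 and 0.184 in the arrays labelled H441. For PRKCD the standard error of 0.20 was 0.12 with the A549 arrays fitted alone and 0.10 without the arrays labelled H441. δ193 was compared with δscr in A549, and that change with the mean change of the other 3 lines. Benjamini-Hochberg adjustment covered all genes, and calls required an adjusted p below 0.05 with a change of at least 0.32 (log2), the minimum in the study's methods, whose own test was Student's. Intervals are 95%. Groups follow the sample titles. The number of arrays limits the precision.

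Genes were named by rule: PRKCD, the 15 largest called increases and decreases without overlap, the 8 largest differences from the other lines in each direction, up to 5 called genes per direction and list, and the genes of the study's lists. Others, such as members of a list that were not called and AGR2, NFKB1, NFKBIE, CXCL5, TNFSF15, the promoter motif and the marker genes, were chosen after values were seen. All members and gene lists were chosen with earlier results of these data known. List members in clusters with several symbols are not analysed here. In simulated A549 arrays of 18417 genes, 52 of 67 genes changed 1.5 fold were recovered. So were 65 of 67 changed 2 fold and 66 of 66 changed 4 fold. In the same simulation 40 unchanged genes were called. The test of the difference recovered 45 of 67, 64 of 67 and 66 of 66, and called 26 unchanged genes. In both, unchanged genes made up a larger share of the simulated calls than the adjusted p threshold is meant to allow.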

Additional observations from a re-analysis of the deposited data

Results flagged for a closer look

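The change in A549 differed from the mean change of the other lines by the test of that difference in the following named genes. It lay above by 3.97 for CES1, 2.73 for HGF, 2.56 for CEACAM5, 2.54 for MAL2, 2.47 for CES1P1, 2.36 for SPINK6, 2.26 for FABP4 and 2.07 for A1CF, and above by 0.97 for PRKCD, whose decrease was smaller in A549. It lay below by -2.01 for CCL20, -1.82 for CCL2, -1.76 for CXCL8, -1.71 for CD274, -1.63 for ABI3BP, -1.59 for SERPINA3, -1.53 for CCL5 and -1.51 for RBM24. Against H460 and H2009 only, the differences above were 3.75 for CES1, 2.73 for HGF, 2.54 for CEACAM5, 2.19 for MAL2, 2.33 for CES1P1, 1.66 for SPINK6, 1.32 for FABP4, 2.05 for A1CF and 0.88 for PRKCD. Those below were -1.63 for CCL20, -1.91 for CCL2, -2.01 for CXCL8, -1.37 for CD274, -2.05 for ABI3BP, -1.53 for SERPINA3, -1.67 for CCL5 and -1.67 for RBM24. All 17 passed against H460 and H2009 too, PRKCD with the largest adjusted p (0.0423). SPINK6, FABP4, CXCL8, CD274 and ABI3BP were not called in A549 itself.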

How the results depend on the processing

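Of 852 genes called in A549, 634 were shared with the 761 called when the A549 arrays were fitted alone, 807 when array medians were set equal, 811 after a further quantile normalization and 851 of 1240 without the arrays labelled H441. With array weights 1317 genes were called (618 higher), and at a fold of at least 1.5 there were 354 (146 higher and 208 lower). The methods' t-test called 1141 genes, and 38 after Benjamini-Hochberg adjustment (11 higher, 27 lower), where PRKCD was at -1.26 with adjusted p = 0.0923. Against the other lines, array weights gave 1911 genes (981 above, 930 below) and the fold of 1.5 gave 526 (270 above, 256 below). Against H460 853 genes passed, 2223 with array weights and 1634 without the arrays labelled H441. With 1 A549 array left out, called genes numbered 541 to 772 (243 to 357 higher, 297 to 449 lower), with 553 without δ193 replicate 2 and 541 without δ193 replicate 3. Genes that passed against the other lines numbered 741 to 971 (409 to 523 above, 320 to 448 below) and against H460 662 to 838, and PRKCD ranged from -1.39 to -1.15. Without δscr replicate 1, CEACAM5, MAL2, CHST9 and KRT20 changed by 1.69, 1.30, 1.13 and 0.90. Among the genes named by rule, 35 lost the call without at least 1 of the 6 arrays, and no called gene that is named changed direction under these settings (genes not called were not checked). Replicate numbers did not pair the arrays (correlations 0.08, -0.01 and 0.05), and the replicate block gave 834 calls, 750 of them shared. The cause of these shifts was not tested. Where a gene sits near the low end of the arrays, a decrease cannot be seen.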

Other observations

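In a list of 28 genes of intestinal epithelium, drawn up after the values were seen and so chosen with the pattern known, 12 of 27 measured were higher and 0 lower (median 0.33), against 2.05% of all genes higher. With 1 array left out the number higher was 8 to 10, with 8 without δscr replicate 2, δ193 replicate 2 or δ193 replicate 3, and no test of the list was made. Beside KRT20, CEACAM5 and MUC13 they include CDH17, an intestinal cadherin (6.72 to 7.47, change 0.75), the annexin ANXA13 (0.76), the goblet cell peptide SPINK4 (0.86), the tetraspanin TSPAN8 (0.74), the brush border protein VIL1 (0.51) and the peptidase ANPEP (0.52). ANPEP lost its call when any of 5 arrays was left out, and ANXA13 without δscr replicate 1. The intestinal transcription factors CDX1 and CDX2 were not called (0.14 and 0.19), nor was the goblet mucin MUC2 (0.18). CDH17 and KRT20 were at or below 3.14 and 3.999 with δscr in each of the other lines.

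Genes of antigen presentation and iron handling were looked at in the same way. Over all genes 2.05% were higher and 2.58% lower. Of 12 MHC-linked genes measured 5 were lower and 0 higher (median -0.32): HLA-DMB (-0.65), HLA-DMA (-0.61), the stress ligand MICB (-0.66), the peptide transporter TAP1 (-0.45) and PSMB9. The other 7 were not called and moved in both directions, among them B2M (0.24) and TAP2 (-0.26). A further 8 genes of the list were not measured. HLA-DMA lost its call when any of 5 arrays was left out (adjusted p = 0.0701 to 0.13). Of 14 genes of iron handling the iron exporter SLC40A1, or ferroportin, was higher (4.83 to 6.13, change 1.30, adjusted p = 8.26e-07) and CP, LCN2 (-1.08) and HMOX1 were lower. HMOX1 lost its call when any of 5 arrays was left out. Of 5 tyrosine degradation enzymes HPD and HGD rose, by 1.23 and 0.87, and TAT (0.24), GSTZ1 (0.13) and FAH (-0.14) were not called. NAMPT, which recycles nicotinamide to NAD, rose from 10.2 to 11.4 (1.18, adjusted p = 1.18e-06), and SLFN11, a helicase that halts stressed replication, fell from 8.13 to 7.07 (-1.06, adjusted p = 1.01e-05) and was at 2.78 to 3.31 in the other lines.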
